A study of Homo sapiens with 3 samples.

Results

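Isolated HMGA1 peaks are peaks that stand alone: their summit lies more than 40 kb from the next summit on either side. They were taken from the autosomal peaks of the list in which a chromatin immunoprecipitation (ChIP) library of HMGA1 was set against input DNA. Of 381376 autosomal peaks in that list, 1442 were isolated, which is 0.378% (Wilson 95% interval 0.359 to 0.398), out of 385953 peaks on all chromosomes. Summit positions in the list chose the members, so distances and the spacing of peaks are given as description only. Peaks whose nearest summit was 3 to 10 kb away, 91678 in number and 24.04% of the autosomal peaks, served as the comparison.

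The material was DAMI, a human leukaemic cell line labelled as myeloproliferative neoplasm and acute myeloid leukaemia. Its sonicated nuclei gave 3 libraries of 1 sample each, which were ChIP with an HMGA1 antibody, ChIP with a histone H3 antibody, and input DNA that saw no antibody. The cells carried no stated treatment, and all libraries came from the same line. The deposited data are 2 peak lists on hg19 of the same HMGA1 library, one with H3 as control (the H3 list) and one with input as control (the input list). Since each antibody has 1 library, neither a replicate error nor a test can be given. All intervals are 95% intervals that cover counting error only.

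HMGA1 is an architectural chromatin protein. Its AT-hook motifs enter the minor groove of AT-rich DNA, where it bends DNA, competes with linker histone and helps transcription factors assemble. AT-rich, gene-poor stretches therefore offer many potential sites, and GC-rich, gene-dense stretches fewer. Histone H3 is a core component of nucleosomes, so an H3 library tracks nucleosomes, whereas an input library tracks the amount of DNA that each region contributes.

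Most isolated peaks were modest in height, and few stood far above the rest of the list. The strongest ran from 140153983 to 140155069 on chromosome 9. Its HMGA1 signal exceeded input by 16.5-fold, with 65 reads at an input control level of 2.995 reads. The next summits lay 126.6 kb to its left and 183.6 kb to its right. The fold of a peak is the authors' deposited ratio of HMGA1 over its control at the summit, and the reads are the HMGA1 pileup recovered from that fold and its p-value. Over H3 the same site was 7.45-fold, and 2 H3-list peaks lay within its 1087 bp. The highest q-value score (−log10 q of 59.0) belonged to a chromosome 7 peak from 102203003 to 102203841, which had 75 reads, the most of any isolated peak, a fold of 13.9 over input and a fold of 16.6 over H3. The third by fold lay on chromosome 6 from 170369166 to 170369539, at 12.4-fold over input with 46 reads and at 9.36-fold over H3.

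Chromosome 1 contributed 3 of the 8 isolated peaks with the highest fold. They ran from 15702372 to 15702744 (44 reads, 11.9-fold), from 1107972 to 1108358 (42 reads, 11.2-fold) and from 32860910 to 32861273 (50 reads, 11.2-fold). On chromosome 12 the peak from 48163448 to 48163831 had a fold of 10.6 with 57 reads, and a second chromosome 9 peak from 137402380 to 137402836 had a fold of 10.6 with 39 reads. All 8 of these peaks were also called over H3, with folds over H3 between 7.45 and 16.6. Ranked by q-value, a chromosome 1 peak from 37489921 to 37490221 (63 reads, 10.5-fold over input, 6.32-fold over H3) and a chromosome 21 peak from 45698383 to 45698801 (63 reads, 10.1-fold over input, 9.96-fold over H3) joined the leading 5. Their input control levels, 5.09 and 5.34 reads, were above the genome-wide floor of 2.78 reads, the lowest level that the peak caller uses.

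Isolated peaks reached at most 75 reads and 16.5-fold, against 374 reads and 26.6-fold among all autosomal peaks of the input list. A fold of at least 8 was reached by 61 isolated peaks (4.23%) and by 6.76% of the peaks with a neighbour at 3 to 10 kb, beside 7.31% of all autosomal peaks. At least 25 HMGA1 reads were found at 245 isolated summits (16.99%) and at 25.7% of the summits with a neighbour at 3 to 10 kb, beside 28.6% of all autosomal peaks.

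Isolated peaks had fewer reads than peaks with a neighbour at 3 to 10 kb, but the same median fold. The median summit held 17 HMGA1 reads (interval 17 to 18, quartiles 14 and 22), against 19 reads (19 to 19, quartiles 15 and 25). The median fold was 4.5 in both groups, with an upper quartile of 5.55 for isolated peaks and 5.77 for the others. This median is the fold of 16 reads at the input floor, which 71 isolated and 2854 comparison peaks had. It was also the median over all autosomal peaks, so the equality is in part a tie at 1 common value. The median −log10 q was 6.66 (interval 6.19 to 6.94) for isolated peaks and 6.94 for the others. The input control level was lower as well. It was at its floor at 910 isolated peaks (63.1%, 60.6 to 65.6) and at 39.4% (39.1 to 39.7) of the peaks with a neighbour at 3 to 10 kb, beside 35.7% of all autosomal peaks. A fold at the floor may be understated, because a true input level below the floor would not be used, so equal median folds do not show equal enrichment. Fewer DNA copies and poorer recovery of reads in a region cannot be told apart in these lists.

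At the floor itself the groups had the same median, 16 reads and a fold of 4.5, over 910 isolated peaks and 36143 peaks with a neighbour at 3 to 10 kb. Above the floor the medians were 20 and 21 reads. Most isolated peaks thus had the input control at its floor, but this differed by chromosome. The share ran from 0% on chromosome 21 (7 isolated peaks) and 23.8% on chromosome 12 to 90.8% on chromosome 22. With the comparison peaks weighted to the chromosomes of the isolated peaks, the floor shares were 63.1% and 50.1%. Read numbers of isolated peaks reached less far up, with 27 reads at the 90th percentile against 33 for peaks with a neighbour at 3 to 10 kb.

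Isolated peaks were also narrower. Their median width was 258 bp (interval 253 to 264, quartiles 216 and 312), against 285 bp (284 to 286, quartiles 226 and 382) with a neighbour at 3 to 10 kb, and 298 bp over all autosomal peaks. Widths of at least 500 bp occurred in 73 isolated peaks (5.06%) and in 13.4% of the comparison peaks, beside 17.1% of all autosomal peaks. A width of at least 1 kb was reached by 5 isolated peaks (0.347%), by 1.34% of the comparison peaks and by 2.02% of all autosomal peaks. The summit lay within 10% of the peak width from the centre in 60.8% of isolated peaks (58.3 to 63.3) and in 52.7% of the comparison peaks (52.4 to 53.0).

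The 5 isolated peaks of at least 1 kb differed among themselves. The widest, on chromosome 1 from 9112947 to 9114129, spanned 1183 bp with 37 reads and was 10.05-fold over input and 8.63-fold over H3. A chromosome 4 peak from 5490556 to 5491695 spanned 1140 bp with 28 reads and a fold of 7.67. The chromosome 9 site with the highest fold was the third. The other two were weaker. A chromosome 1 peak from 22539965 to 22541036 had 22 reads, an input level of 7.12 reads and a fold of 2.83, and a chromosome 11 peak from 125205944 to 125206999 had 28 reads, an input level of 5.34 reads and a fold of 4.58. All 5 overlapped an H3-list peak, as did 1225 of the 1230 comparison peaks of at least 1 kb, so this was not particular to isolated peaks.

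**Figure D1:**
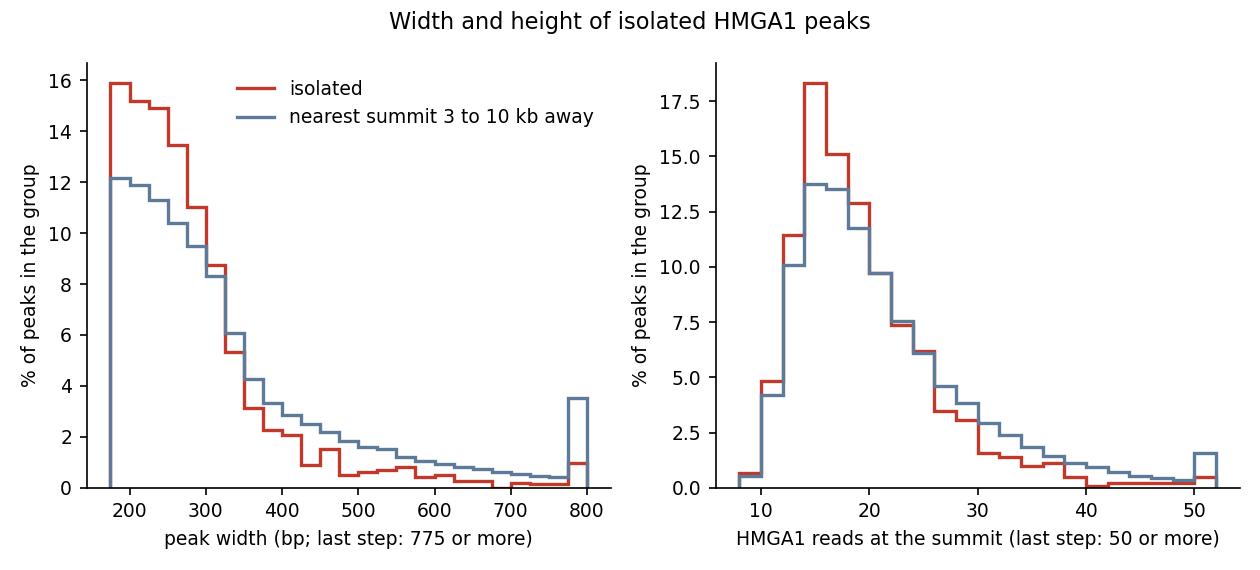
Share of peaks (y axis, % of the group) by peak width in bp in steps of 25 bp (left) and by HMGA1 reads at the summit in steps of 2 reads (right), for the 1442 isolated peaks and the 91678 peaks whose nearest summit is 3 to 10 kb away. Isolated peaks are more concentrated at low widths and low read numbers, with medians of 258 bp and 17 reads against 285 bp and 19 reads, and have the smaller share beyond 500 bp.

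Width follows height in a peak list, so widths were also compared at equal reads. With exactly 16 reads and the input control at its floor, both groups have the same fold of 4.5. The median width was 240 bp (225 to 250) at 71 such isolated peaks and 258 bp (255 to 261) at 2854 comparison peaks. With 18 reads at the floor it was 250 bp (237 to 258, 67 peaks) against 284 bp (280 to 288, 2174 peaks), and with 20 reads 274.5 bp (256 to 298, 46 peaks) against 308 bp (301 to 315, 1597 peaks). The median was also lower in isolated peaks at 12, 14, 22 and 24 reads, where the intervals met or overlapped. With the comparison peaks weighted to the reads and floor state of the isolated peaks, the median width was 258 bp in isolated peaks against 278 bp in comparison peaks, a difference of -20 bp in place of -27 bp. Isolated peaks thus remained the narrower group at equal reads and floor state in these lists. Input levels above the floor were not matched. Weighted to reads and chromosomes instead, the comparison median was 270 bp, a difference of -12 bp.

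Fewer isolated peaks were called again over H3. An H3-list peak overlapped 718 of the 1442 isolated peaks by at least 1 bp (49.8%, 47.2 to 52.4), against 62.7% (62.4 to 63.0) of the peaks with a neighbour at 3 to 10 kb and 66.3% of all autosomal peaks. Both lists hold the same HMGA1 reads, so this overlap is no replication. HMGA1 reads entered the H3 list scaled by 0.787, and the lowest pileups called were 11 reads over H3 and 8 reads over input.

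Isolated peaks found over H3 were the taller ones. They had a median of 22 HMGA1 reads (21 to 22), a fold of 5.55 over input and a width of 299 bp. The 724 isolated peaks without an H3-list peak had a median of 15 reads (14 to 15), a fold of 3.97 and a width of 219 bp, with the input control at its floor in 73.3% of them, against 52.8% of those found over H3. The comparison peaks split in the same way, with 23 reads and 328 bp where an H3-list peak was found and 14 reads and 221 bp where none was, and with the input control at its floor in 31.1% and 53.4%. None of the 61 isolated peaks with a fold of at least 8 lacked an H3-list peak, and none of the 6200 comparison peaks of that fold did. Of those with at least 25 reads, 6 of 245 isolated peaks and 357 of 23550 comparison peaks lacked one. The H3-list peaks that matched isolated sites were 236 bp wide at the median, with a median enrichment over H3 of 5.24 (quartiles 4.45 and 6.06). Those that matched comparison sites were 273 bp wide, with a median of 5.25 (quartiles 4.38 and 6.42).

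The share found over H3 was higher at higher read numbers, and the groups differed beyond their counting intervals between 14 and 20 reads. At 14 to 15 reads it was 13.3% (9.69 to 17.9) of 264 isolated peaks and 22.5% (21.8 to 23.3) of 12606 comparison peaks. At 16 to 17 reads it was 30.7% (24.99 to 37.1) of 218 isolated peaks and 46.9% (46.0 to 47.8) of 12413 comparison peaks. At 18 to 20 reads it was 67.8% (62.0 to 73.1) against 76.8% (76.1 to 77.4). At 21 to 24 reads the shares were 92.6% (88.2 to 95.5) and 92.7% (92.3 to 93.1), and at 25 reads or more 97.6% (94.8 to 98.9) and 98.5% (98.3 to 98.6). Below 14 reads few peaks of either group were found over H3, namely 3.27% (1.66 to 6.31) and 5.47% (5.1 to 5.87).

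At identical reads and an identical input level the same order was seen. With 16 reads at the input floor, 15 of 71 isolated peaks (21.1%, 13.2 to 32.0) overlapped an H3-list peak, against 38.3% (36.5 to 40.1) of the comparison peaks. With 18 reads at the floor it was 34 of 67 (50.7%, 39.1 to 62.3) against 72.5% (70.6 to 74.3), and with 20 reads 37 of 46 (80.4%, 66.8 to 89.3) against 92.7% (91.3 to 93.9). At 12, 14, 22 and 24 reads the share was lower in isolated peaks too, but the intervals overlapped. The share of 49.8% in isolated peaks stood against 56.2% in comparison peaks weighted to the reads and floor state of the isolated peaks, and against 52.1% in comparison peaks weighted to width class as well. The difference was -12.9 percentage points without weighting, -6.4 with reads and floor state, and -2.32 with width as well. The 52.1% with width as well lay within the counting interval of the isolated share (47.2 to 52.4). Width, reads and floor state moved with H3-list overlap in this way, and their part in it was not tested beyond these weightings.

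**Figure D2:**
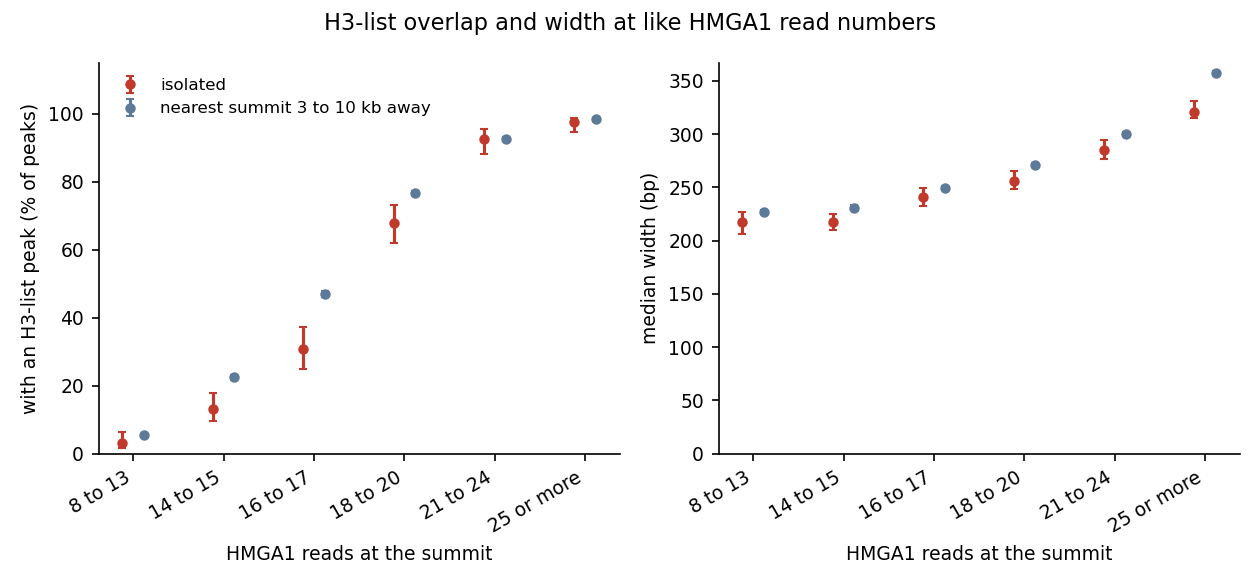
Share of peaks with an H3-list peak (left, % of peaks) and median width in bp (right) by HMGA1 reads at the summit, for isolated peaks and for peaks whose nearest summit is 3 to 10 kb away, with 95% intervals for counting error. At 16 to 17 reads 30.7% of isolated peaks and 46.9% of the others have an H3-list peak, whereas both exceed 92% from 21 reads on, and isolated peaks have the lower median width in each class.

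At 309 isolated peaks the summits of the input list and the H3 list coincided to the base, so that the H3 and input levels could be set side by side. Such sites were chosen by having passed both calls. Both controls were at their floor at 40.1% of these isolated sites, against 24.3% of 25329 comparison sites. Input was above its floor at 43.7% and 66.6%, and H3 at 46.9% and 57.2%. H3 exceeded input by more than 1.5 times, each relative to its own floor, at 13 of the isolated sites (4.21%), against 4.46% of the comparison sites. At 19 isolated sites (6.15%) input exceeded H3 by as much, against 10.2% of the comparison sites. A call over H3 needs an H3 level that is low relative to the HMGA1 reads. These shares therefore hold for sites that passed that call and say nothing of isolated peaks without an H3-list peak.

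Isolated peaks were unevenly spread over the chromosomes. Chromosomes 16, 17, 19, 20 and 22, which are gene-rich, held 478 of them, or 33.1%, though they carried only 5.27% of all autosomal peaks. In this group 2.38% of peaks were isolated (2.18 to 2.6). Chromosomes 4, 13, 18 and 21, which are gene-poor, held 60 isolated peaks among 81483, or 0.0736% (0.0572 to 0.0948). The other 13 autosomes held 904, or 0.323% of their peaks (0.303 to 0.345), with single chromosomes between 0.115% and 0.636%.

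Chromosome 22 had the highest share, with 76 of 1536 peaks isolated (4.95%, 3.97 to 6.15), followed by chromosome 16 with 143 of 4520 (3.16%), chromosome 20 with 82 of 3687 (2.22%), chromosome 19 with 75 of 3620 (2.07%) and chromosome 17 with 102 of 6742 (1.51%). Chromosome 13 had the lowest, 10 of 21876 (0.0457%, 0.0248 to 0.0841), and chromosome 4 had 23 of 39817 (0.0578%). The intervals of chromosomes 16 and 20 overlap, as do those of chromosomes 20, 19 and 17 with one another, and those of chromosomes 13, 4, 21 and 15 with one another. The rule selects sparse stretches, so this order is tied to the density of peaks by construction. Over the 22 autosomes the share isolated and the number of peaks per Mb had a Spearman correlation of -0.948. Both come from the same summit positions of 1 library, so the value is a description only and no independent evidence. Chromosome 15 lay below chromosomes of like density. At 126.1 peaks per Mb it had 12 isolated peaks (0.115%, 0.066 to 0.202), against 0.631% (0.515 to 0.772) on chromosome 9 at 124.8 peaks per Mb and 0.582% (0.483 to 0.701) on chromosome 7 at 120.1 peaks per Mb.

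**Figure D3:**
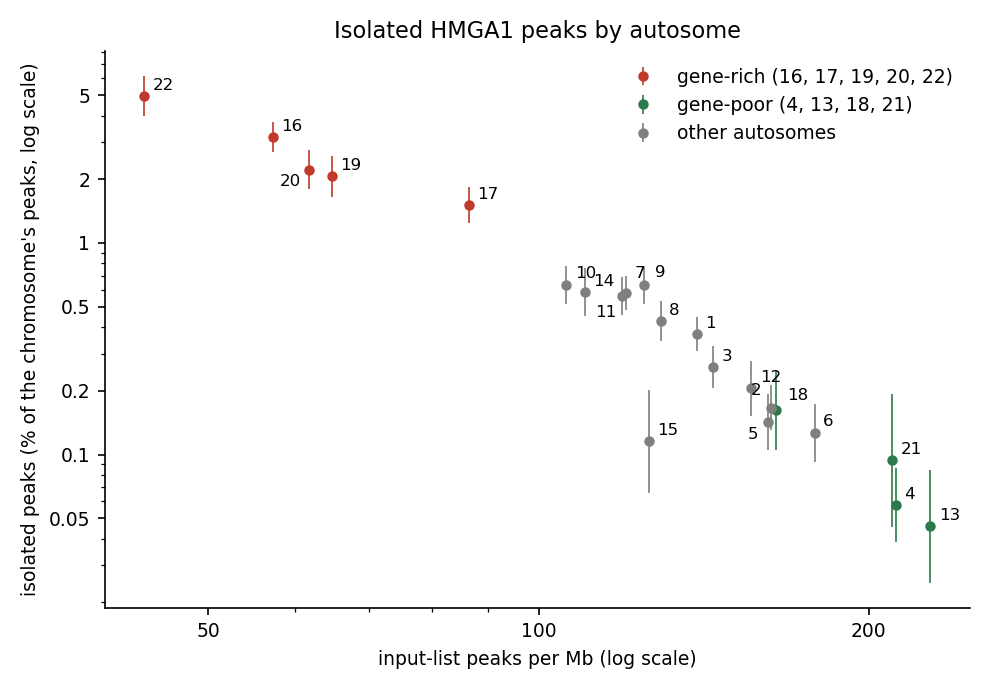
Share of each autosome's input-list peaks that are isolated (y axis, %, log scale) against peaks per Mb (x axis, log scale; gaps of 1 Mb or more between summits were not counted as length), with Wilson 95% intervals and chromosome numbers. Chromosome 22 is highest at 4.95% and chromosome 13 lowest at 0.0457%, and chromosome 15 lies below chromosomes 9 and 7, which have a like density.

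The differences in width and overlap were also seen within chromosomes. Among the 19 chromosomes with at least 20 isolated peaks, the median width of isolated peaks was below that of the comparison peaks in 18, and the exception, chromosome 16, had 260 bp against 259 bp. The share with an H3-list peak was lower in 17 of 19, and the share at the input floor higher in 16 of 19. On many of these chromosomes the interval of the isolated overlap share included the comparison share, as on chromosome 16 (46.2%, 38.2 to 54.3, against 47.0%). On others it did not, as on chromosome 1 (51.7%, 42.8 to 60.5, against 68.6%). Median reads showed no such order, being lower in 9 chromosomes, equal in 6 and higher in 4. The median fold was higher in isolated peaks in 12 chromosomes and lower in 7. On the gene-rich chromosomes isolated peaks had a median of 17 reads and 256 bp, against 18 reads and 268 bp. On the gene-poor chromosomes the 60 isolated peaks had 23 reads and 279.5 bp, against 20 reads and 296 bp. These 4 chromosomes differed among themselves, since chromosome 13 had 16 reads in its 10 isolated peaks against 20, and chromosome 4 had 24 reads in its 23 isolated peaks against 19.

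The isolated peaks gathered in certain stretches and, pooled over the autosomes, lay more often near the first or last summit of a chromosome. Of 567 windows of 5 Mb with a peak, 253 (44.6%) held no isolated peak, whereas 39 windows with at least 10 held 488 of them (33.8%) and 2.22% of all autosomal peaks. The leading window was the first 5 Mb of chromosome 7, with 22 isolated peaks among 140. It was followed by the first 5 Mb of chromosome 1 (19 of 174), chromosome 9 from 135000001 to 140000000 (18 of 118), chromosome 22 from 45000001 to 50000000 (18 of 168) and chromosome 16 from 85000001 to 90000000 (17 of 87). These windows were picked for their counts. The input control was at its floor at 80.7% of the peaks in the chromosome 7 window and 82.8% in the chromosome 16 window, but at 29.9% in the chromosome 1 window and 30.5% in the chromosome 9 window, so sparse stretches occurred at low and at higher input levels. Within 5 Mb of the first or last summit of a chromosome lay 309 isolated peaks (21.4%, 19.4 to 23.6), against 5.1% (4.96 to 5.25) of the comparison peaks and 4.24% of all autosomal peaks. The first summit need not lie at a chromosome end, and 5 Mb is a larger part of a shorter chromosome. Chromosomes 16, 17, 19, 20 and 22 held 33.1% of isolated peaks and 6.81% of comparison peaks. The shares were not weighted to chromosomes, and the part of chromosome length in them was not tested.

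The surroundings of isolated peaks were thinly occupied, which the rule favours, but never empty within 500 kb. Within 500 kb on either side of an isolated summit lay a median of 46 other input-list peaks (quartiles 30 and 63, range 2 to 171), against 147 (quartiles 100 and 206) around the comparison peaks. The nearer neighbour was at a median of 51 kb (quartiles 44.4 and 63.4), and 170 isolated peaks (11.8%) had none within 80 kb. Only 6 isolated peaks bordered a peak-free stretch of at least 1 Mb between peaks, and 5 had no neighbour on 1 side because they ended the list of their chromosome. Such stretches were not checked for unassembled sequence. At 21 isolated peaks (1.46%) another H3-list peak had its summit within 40 kb, although no other input-list summit was there. The share was 98.4% for the comparison peaks. The rule bears on both shares, since both lists hold the same HMGA1 reads.

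Some isolated peaks followed one another. The rule favours this, since a direct neighbour of an isolated peak already has a gap of more than 40 kb on that side. Of the 1442, 822 (57.0%) had no isolated peak as direct neighbour in the list, 362 stood in 181 pairs and the others in runs of 3 to 7. The longest runs were 7 isolated peaks on chromosome 16 from 65899417 to 66286888, with 9 to 21 reads, and 7 on chromosome 19 from 18742642 to 19259598, with 11 to 36 reads and folds from 3.17 to 9.78. In each of these runs 3 of the 7 peaks were found over H3. Of the 2 runs of 6, that on chromosome 1 from 2962958 to 3429918 had 3 peaks found over H3 and that on chromosome 8 had 1. Among the 11 runs of 5, a run on chromosome 1 from 15594052 to 15828103 included the 11.9-fold peak named above and had 4 peaks found over H3. Another from 945718 to 1413220 on the same chromosome included the 11.2-fold peak at 1107972; both are given because they hold peaks named above.

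The most remote peaks had 16 to 25 reads. The greatest distance to the nearest summit was 351.3 kb, between a pair of neighbours on chromosome 16 from 950435 to 950642 (16 reads, 4.5-fold) and from 1301715 to 1301956 (25 reads, 6.88-fold). The next was on chromosome 19 from 24596441 to 24596630, with 259.2 kb to the left and a peak-free 3152 kb to the right, 19 reads, an input level of 5.34 reads and a fold of 3.16. No hg19 genome was used, so unassembled sequence in that stretch was not told apart from sequence without a peak. A chromosome 12 peak from 132911165 to 132911435 followed at 248.9 kb (20 reads, 5.55-fold), and a chromosome 7 peak from 131983910 to 131984161 at 217.0 kb (16 reads, 4.5-fold). Of these 5 only the chromosome 12 peak was found over H3, at 5.04-fold.

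On either side of the 40 kb limit the nearest peaks were as follows. The 5 isolated peaks nearest to it, at 40006 to 40025 bp, had 14 to 25 reads and folds from 3.97 to 6.7, and 4 of them overlapped an H3-list peak. The 5 peaks just short of it, at 39949 to 39981 bp, had 12 to 33 reads and folds from 3.44 to 8.27, and 4 of them overlapped an H3-list peak.

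Over the whole range of distances, width and H3-list overlap were lower and the share at the input floor higher the farther the nearest summit lay, up to 80 kb, with the closest class under 1 kb below the 1 to 3 kb class in width and overlap. The median width was 312 bp at 1 to 3 kb, 269 bp at 10 to 20 kb, 263 bp at 20 to 40 kb and 257 bp (251 to 263) at 40 to 80 kb. Overlap with the H3 list was 69.3%, 56.4%, 53.4% and 48.9% (46.2 to 51.6) in the same classes, and the share at the input floor 33.4%, 48.2%, 55.1% and 62.7%. The 170 peaks beyond 80 kb did not continue this order for width (264.5 bp, 245 to 282) and H3-list overlap (56.5%, 49.0 to 63.7), and these intervals overlap those of the 40 to 80 kb class. The share on the 5 gene-rich chromosomes was 3.84% at 1 to 3 kb, 13% at 10 to 20 kb, 21.2% at 20 to 40 kb, 32.5% at 40 to 80 kb and 37.6% beyond 80 kb.

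**Figure D4:**
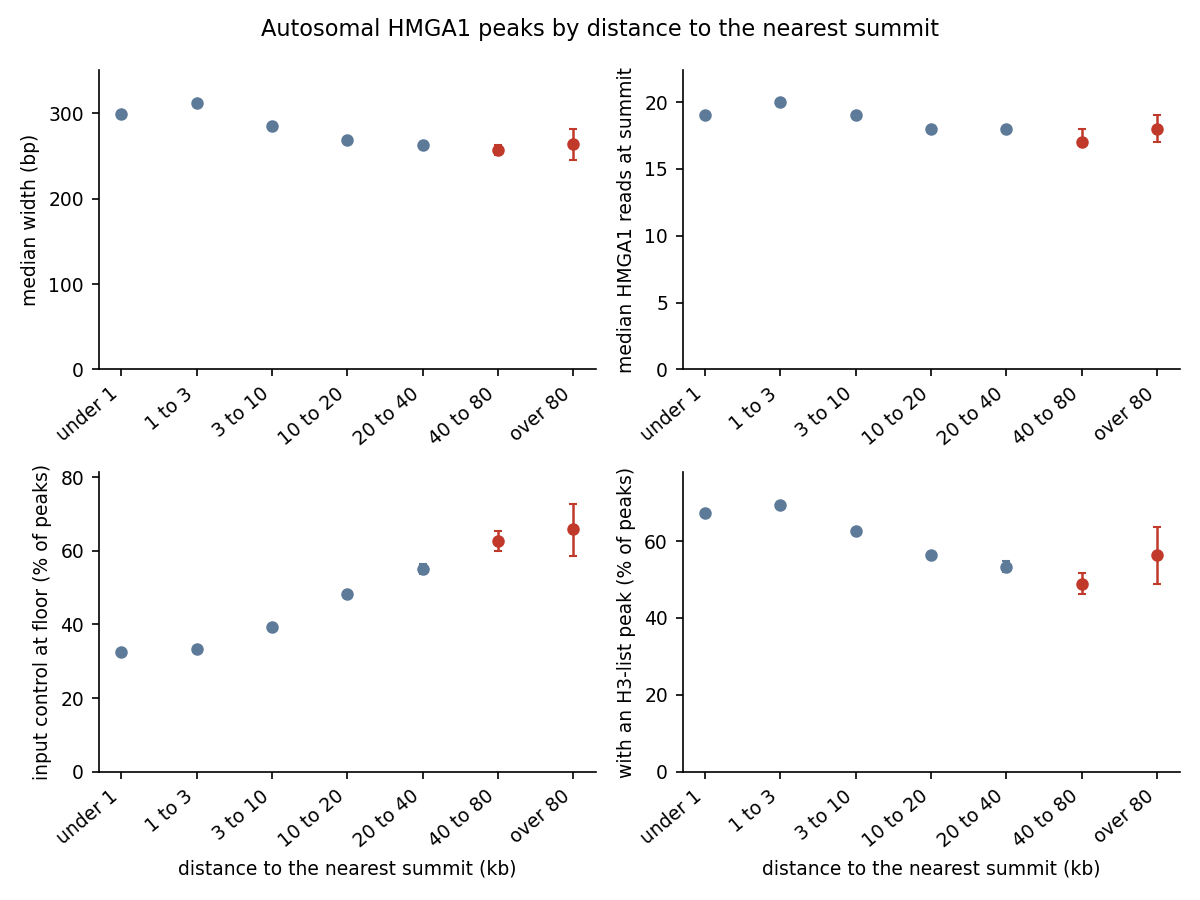
Median width in bp, median HMGA1 reads at the summit, share of peaks with the input control at its floor (%) and share with an H3-list peak (%) by distance to the nearest summit in kb, over all autosomal peaks, with 95% intervals for counting error; isolated classes (over 40 kb) are in red. Width is 312 bp at 1 to 3 kb and 257 bp at 40 to 80 kb, and the share at the input floor is 33.4% and 62.7% in these classes.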

How the data were processed

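Peaks were called with MACS2 on hg19, per the submitters' processing notes; its version is not given in the sources used here, nor is the aligner. Each peak of the 2 deposited lists has a fold enrichment ratio over the control, −log10 p-value and q-value, and a score. The peak names carry the control and build, but do not spell HMGA1 for the ChIP library; only the list names do. The HMGA1 pileup and control level at each summit were recovered as the whole read number giving back the deposited fold and p-value within 0.001, which held for 385953 of 385953 input-list peaks and, with reads multiplied by 0.787 (fitted on 400 peaks), for all 263033 H3-list peaks. At 114050 shared summits the recovered pileups were equal. The recovery was tested on simulated data. Total depth is unknown.

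Coordinates are 1-based on hg19. Overlap means at least 1 bp; shares carry Wilson 95% intervals and medians binomial 95% intervals. Peaks are not replicates, and no test was run. Named peaks were the 8 with the highest fold, the 5 with the highest q-value score, the 5 most distant from a neighbour on both sides, the 5 widest, and 5 on each side of the 40 kb limit; windows and runs were named after their values were seen. The members and lists were chosen with earlier results of these data known. Peak sequences, AT content and gene context were not analysed here, since no hg19 genome or annotation was used. Alternatives were other distances, comparison classes, overlap definitions and weightings. Tools were Python 3.11.15 with matplotlib 3.10.9, scipy 1.17.1, pandas 2.3.3 and numpy 2.4.6.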

Additional observations from a re-analysis of the deposited data

How the results depend on the processing

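No paired analysis was possible because the 3 libraries are single samples of different antibodies, and for the same reason no replicate could be left out. Requiring a neighbour on both sides (1437 peaks) or leaving out peaks beside peak-free stretches (1436) left the median width, fold and reads and the H3-list overlap of the isolated peaks within their counting intervals. Leaving out chromosomes 16, 17, 19, 20 and 22 did so too, with 964 isolated peaks remaining. The number of isolated peaks was 6929 beyond 20 kb, 170 beyond 80 kb, and 2484 when only peaks with a −log10 q of at least 5 entered. Beyond 20 kb the H3-list overlap was 52.6%. Beyond 80 kb the median width was 264.5 bp, the median fold 4.65 and the overlap 56.5%. With the q-value limit the median width was 276 bp, the median fold 5.02, the median pileup 20 reads and the overlap 68.4%.

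The difference in median width, isolated minus comparison peaks, was -9 bp against peaks 10 to 40 kb apart, -54 bp against peaks 1 to 3 kb apart, -38 bp with the q-value limit, -20 bp weighted to the chromosomes or to the reads and floor state, and -12 bp weighted to reads and chromosomes. The difference in median fold was -0.0765 against peaks 1 to 3 kb apart and -0.139 with the q-value limit, and that in median pileup was -3 reads against peaks 1 to 3 kb apart. The difference in H3-list overlap was, in percentage points, -5.92 against peaks 10 to 40 kb apart, -19.5 against peaks 1 to 3 kb apart, -8.58 weighted to chromosomes, -6.17 weighted to reads, -6.4 weighted to reads and floor state, -4.76 weighted to reads and chromosomes, and -2.32 weighted to reads, floor state and width. The difference in the share at the input floor was 12.99 points weighted to chromosomes, against 23.7 without. The width and overlap differences were negative in each setting run for them, and the floor difference was positive in the 1 alternative run for it. With weighting to reads, floor state and width, however, the comparison overlap of 52.1% lay within the counting interval of the isolated share (47.2 to 52.4). Weightings that combine reads with floor state, width or chromosomes, and the weighting of the floor difference, were added after the data were seen. The causes of these changes were not tested. Sites under 8 HMGA1 reads were not detectable at this depth, so a peak counts as isolated only among called peaks.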

Other observations

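By the same 40 kb limit, 494 of the 3576 input-list peaks on chromosome X and 63 of the 1001 on chromosome Y stood alone; these chromosomes were outside the rule and enter no comparison.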
